A study of Mus musculus with 24 samples.

Results

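The report concerns mmu-miR-205-5p and mmu-miR-203-3p, the main mature miRNAs of the mouse miR-205 and miR-203 hairpins. They were picked by name as epithelial miRNAs known from basal and squamous cells, and are 2 of the 1009 miRNAs listed in the data. The small RNA came from mammary glands (abdominal and inguinal, homogenised whole) of female C57BL/6 mice, and each of the 24 libraries holds 1 mouse. Adult females aged 10 weeks (W10) were compared with pregnant females at gestation day 18 (P18), with females lactating for 7 days (Lac7), and with females whose glands had involuted for 3 days (Inv3), with 6 mice per stage. Involution is the regression of the gland once milk removal ends. The labels name no transgene, deleted allele or treatment. A homogenate holds milk-secreting and basal epithelium together with fat, connective tissue, vessels and blood cells, and may hold muscle or skin. In such bulk samples, fewer cells of a type and less RNA per cell cannot be told apart.

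A miRNA guides the Argonaute protein to messenger RNAs, mainly by pairing of its bases 2 to 8, the seed, and lowers the translation and stability of these messengers. miR-205 is known from the basal layer of stratified and glandular epithelia, including the basal and progenitor cells of the mammary gland, and acts with the miR-200 family against ZEB1 and ZEB2, repressors of the epithelial state. miR-203 is known from the skin, where it rises as keratinocytes leave the basal layer and lowers p63, the transcription factor that maintains basal cells. The miR-200 family itself is made by epithelial cells in general and by few others.

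The mature sequences are shown because the seed decides which messengers each miRNA can pair with, with bases 2 to 8 in capitals. Sequences are from RefSeq on GRCm38.p6, where 854 of the 1009 listed names were matched.
miR-205-5p: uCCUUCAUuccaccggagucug
miR-203-3p: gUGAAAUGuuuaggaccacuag
The seeds are equal at 0 of 7 positions, and no other matched miRNA carries either of them. The other arms of the hairpins are shown because the arms of miR-203 changed differently between stages.
miR-205-3p: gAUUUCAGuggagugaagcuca
miR-203-5p: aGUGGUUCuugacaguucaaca
In the hairpins, the capitals mark the arm that carried most of the reads.
Mir205: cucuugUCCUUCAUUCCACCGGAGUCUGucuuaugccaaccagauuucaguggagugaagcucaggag
Mir203: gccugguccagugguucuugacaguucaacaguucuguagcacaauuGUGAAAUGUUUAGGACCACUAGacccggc
Mir205 lies on the minus strand at chr1:193507463-193507530 (GRCm38), and miR-205-5p at chr1:193507503-193507524. In the GENCODE annotation the hairpin is within exon 2 of the long noncoding RNA gene 4631405K08Rik, on the same strand. Mir203 lies on the plus strand at chr12:112130880-112130955, and miR-203-3p at chr12:112130927-112130948. No annotated gene overlaps Mir203, and the nearest protein-coding gene, Aspg, is 3321 bases away. miR-203b was not analysed here.

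The deposited values are RPM, reads per 1000000 reads on the listed miRNAs. The libraries held 660346 to 1165321 such reads, with the fewest at Lac7 (660346 to 751890), and a count of 0 allows 2.57 to 4.54 RPM (3 reads, counting error only). Both members were far above this limit in every library. A test with limma on log2(RPM + 1) covered the 544 miRNAs that averaged 1 RPM or more at some stage, both members included. Log2 fold changes of levels, with their SE and p, are from this fit. Levels given as so many fold are ratios of mean RPM, so they can differ from the log2 values. Below, a miRNA passed the test at a Benjamini-Hochberg adjusted p under 0.05, and was called where its log2 fold change was also at least 1 in size. Overlap of the mice is given for the miRNAs named, and the share of all miRNAs without overlap is not given here. The Inv3 mice stood apart from each other in the summed miR-200 family, with 23151 to 30330 RPM in mice 1, 2 and 5 and 59865 to 78252 RPM in mice 3, 4 and 6. All values of RPM share a fixed total, so the same comparisons were also made after scaling by size factors, which moved the median log2 fold change over all miRNAs most in Lac7 against W10, from -0.66 to -0.31.

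miR-205-5p was lowest in the lactating gland and had its highest mean in the involuting gland, whose mice overlapped the adult and pregnant ones. At W10 it was 437 ± 174 RPM (SD, n = 6), with a lowest value of 258.58, a median of 420.92 and a highest value of 690.81 RPM. At P18 it was 461 ± 84.0 RPM, from 337.28 over a median of 479.03 to 569.62 RPM. The pregnant mice lay within the range of the adult mice. At Lac7 it was 155 ± 33.5 RPM, from 125 over a median of 145.17 to 207.61 RPM, and every lactating mouse lay below every mouse of the other stages. At Inv3 it was 688 ± 302 RPM, from 406.52 over a median of 582.55 to 1073.52 RPM. Among the listed miRNAs these means ranked 92, 88, 119 and 71 in the order W10, P18, Lac7 and Inv3. The SD between mice was 39.9%, 18.2%, 21.7% and 43.9% of the mean in that order, and read counting alone gives 4.83%, 4.74%, 9.60% and 3.72%.

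miR-203-3p was the more abundant member, and its level ran differently. At W10 it was 5653 ± 1584 RPM, from 3943.67 over a median of 5512.42 to 8552.74 RPM. At P18 it was 6567 ± 498 RPM, from 6113.58 over a median of 6427.91 to 7398.89 RPM. At Lac7 it was 4943 ± 498 RPM, from 4095.54 over a median of 5062.39 to 5531.02 RPM. At Inv3 it was 3044 ± 525 RPM, from 2302.09 over a median of 2967.25 to 3677.96 RPM. The involuting mice were below all mice of the other stages, while the adult mice overlapped the pregnant and the lactating ones. The means ranked 29, 25, 28 and 38 at W10, P18, Lac7 and Inv3, and miR-203-3p took 0.565%, 0.657%, 0.494% and 0.304% of the reads.

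**Figure D1:**
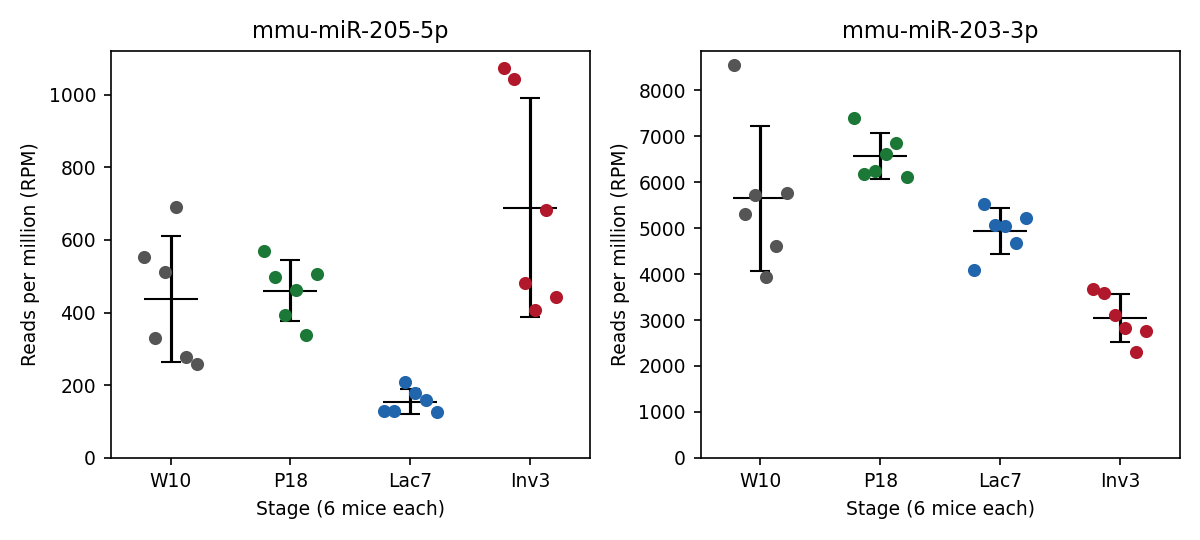
Level of miR-205-5p (left) and miR-203-3p (right) in RPM in each mouse, by stage, with the mean and SD of 6 mice as bars. The Lac7 mice are lowest for miR-205-5p (125 to 207.61 RPM), and the Inv3 mice are lowest for miR-203-3p (2302.09 to 3677.96 RPM).

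Between adulthood and late pregnancy neither member passed the test. The log2 fold change of P18 against W10 was 0.15 for miR-205-5p (SE 0.25, adjusted p = 0.66, limma) and 0.26 for miR-203-3p (SE 0.14, adjusted p = 0.15), in a comparison where 27.6% of the 544 miRNAs were called and 41.5% passed the test. The result for miR-203-3p turned on the scaling. With size factors its log2 fold change was 0.51 and it passed (adjusted p = 0.0069). It also passed without W10 mouse 1, whose level of 8552.74 RPM was the highest of all mice (log2 fold change 0.38, adjusted p = 0.014).

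From late pregnancy to lactation, both members had lower levels. miR-205-5p fell 2.98-fold from P18 to Lac7, by 1.57 on the log2 scale (SE 0.25, adjusted p = 9.0e-06, limma), with no overlap of the mice, and was called. miR-203-3p fell 1.33-fold, by 0.41 on the log2 scale (SE 0.14, adjusted p = 0.017), which passed the test but not the fold limit, also with no overlap. Of all miRNAs, 30.1% were called and 45.2% passed the test here, and 11.0% had a lower log2 fold change than miR-205-5p, against a median of -0.34. With size factors the fall of miR-205-5p was 1.27 on the log2 scale and was called (adjusted p = 1.1e-04), while miR-203-3p had a log2 fold change of -0.11 and did not pass (adjusted p = 0.56).

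From lactation to involution, the members moved in opposite directions. The mean RPM of miR-205-5p rose 4.45-fold from Lac7 to Inv3, and its log2 fold change was 2.06 (SE 0.25, adjusted p = 1.5e-07, limma). The lowest involuting mouse, at 406.52 RPM, was above the highest lactating mouse, at 207.61 RPM, and 96.9% of the tested miRNAs had a lower log2 fold change. miR-203-3p fell 1.62-fold, by 0.71 on the log2 scale (SE 0.14, adjusted p = 1.4e-04), without overlap of the mice and short of the fold limit. In this comparison 26.8% of miRNAs were called and 46.9% passed the test, with a median log2 fold change of 0.28. Both directions and both passes held with size factors, where the log2 fold changes were 1.88 (adjusted p = 4.9e-07) and -0.89 (adjusted p = 1.4e-05).

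Against the adult gland, the lactating gland had 2.82-fold less miR-205-5p in mean RPM. The log2 fold change was -1.42 (SE 0.25, adjusted p = 1.6e-05, limma), with no overlap. miR-203-3p had a log2 fold change of -0.16 with a 95% interval of -0.45 to 0.13 (adjusted p = 0.33). The background was high, with 50.2% of miRNAs called and 66.7% past the test, and a median log2 fold change of -0.66. With size factors miR-205-5p had a log2 fold change of -0.87 (adjusted p = 0.0035), which passed the test and was under the fold limit, and the sign for miR-203-3p turned to 0.40 (adjusted p = 0.021).

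The involuting gland had 1.86-fold less miR-203-3p than the adult gland, by 0.87 on the log2 scale (log2 fold change -0.87, SE 0.14, adjusted p = 2.3e-05, limma), and 2.16-fold less than the pregnant gland (log2 fold change -1.12, SE 0.14, adjusted p = 6.1e-07). Neither comparison had overlapping mice, and the second was called. With size factors these log2 fold changes were -0.49 (adjusted p = 0.012) and -0.996 (adjusted p = 1.1e-05), the latter just under the fold limit. miR-205-5p had a log2 fold change of 0.64 against W10 (SE 0.25, adjusted p = 0.043), which passed the test narrowly with overlapping mice and was not called. It did not pass when Inv3 mouse 1, 2 or 5 or W10 mouse 2, 5 or 7 was left out, with log2 fold changes of 0.49, 0.50, 0.62, 0.58, 0.53 and 0.51. With size factors it was 1.02 (adjusted p = 0.0023) and was called. Against P18 it was 0.49 with a 95% interval of -0.03 to 1.0 (adjusted p = 0.16), and it passed with edgeR on the recovered reads (0.69, adjusted p = 0.035). Of all miRNAs, 25.0% were called and 39.2% passed the test in Inv3 against W10, and 14.2% were called and 28.5% passed in Inv3 against P18.

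**Figure D2:**
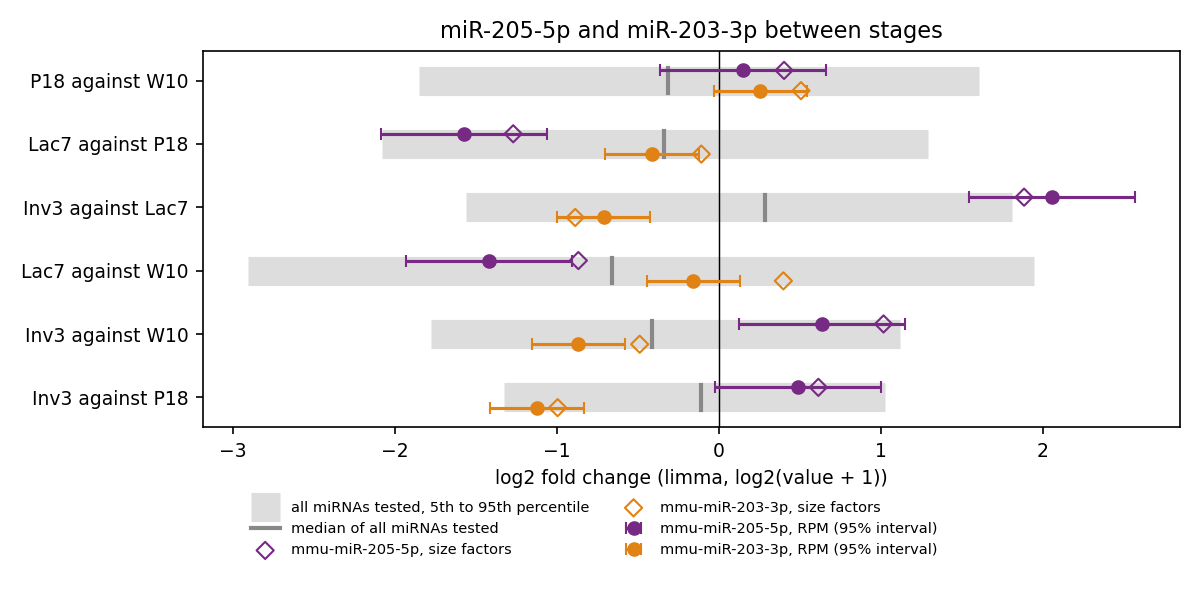
Log2 fold changes of both members in the 6 comparisons of 2 stages. Filled points are RPM with 95% intervals, open diamonds are size-factor scaled values, grey bars span the 5th to the 95th percentile of the 544 tested miRNAs, and the tick is their median. miR-205-5p lies above the grey bar in Inv3 against Lac7 (2.06 against 1.81).

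The level of miR-203-3p relative to miR-205-5p within a library does not depend on the scaling of the library. Adult mice had 14.6 ± 5.61 RPM of miR-203-3p per RPM of miR-205-5p (5.71 to 22.3), and pregnant mice 14.7 ± 3.11 (12.1 to 20.3). The ratio was 33.1 ± 7.48 in lactating mice (24.5 to 42.6) and 4.98 ± 1.73 in involuting mice (3.37 to 6.93). The lactating mice overlapped no other stage, and the involuting mice overlapped only the adult mouse at 5.71. Ligation to adapters differs between miRNAs, so these ratios serve only to compare stages.

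The miR-200 family was used as an epithelial reference in the same libraries. Its summed level of 5 mature miRNAs rose from 16770 RPM at W10 to 57591 at P18 and 122543 at Lac7, and was 48605 RPM at Inv3. Its members did not rise alike, so the sum is no plain measure of epithelium. From W10 to Lac7, miR-200c-3p went from 2892 to 8824 RPM and miR-141-3p from 393 to 6411 RPM. All 5 members passed the test as higher at P18 than at W10, where 41.5% of all miRNAs passed. From P18 to Lac7 all 5 means rose and 4 of 5 passed (all 5 with size factors), where 45.2% of all passed. All 5 passed as lower at Inv3 than at Lac7, where 46.9% of all passed. Their median log2 fold changes were 1.64, 1.12 and -1.59, against -0.32, -0.34 and 0.28 over all miRNAs. All 5 also passed as higher than at W10 at Lac7 and at Inv3, where 66.7% and 39.2% of all passed. Their medians there were 2.98 and 1.36. All 5 means were lower at Inv3 than at P18, and 2 of 5 passed (1 with size factors), where 28.5% of all passed.

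Per 1000 RPM of the miR-200 family, adult mice had 25.6 ± 7.95 RPM of miR-205-5p (17.1 to 34.5) and pregnant mice 8.0 ± 1.28 (6.23 to 10.2). Lactating mice had 1.26 ± 0.255 RPM (0.976 to 1.57), and involuting mice 21.2 ± 17.9 (5.66 to 45.0). On the same scale, adult mice had 345 ± 114 RPM of miR-203-3p (191 to 534) and pregnant mice 115 ± 16 (96.9 to 133). Lactating mice had 40.4 ± 4.20 RPM (33.8 to 45.9), and involuting mice 82.3 ± 52.0 (35.3 to 155). Both ratios fell at pregnancy and again at lactation. At pregnancy the levels of the members themselves had not passed the test. The miR-200 sums did not overlap, with 14824.6 to 20696.5 RPM at W10 and 48824.2 to 63533.5 RPM at P18. The ratio tests of P18 against W10 therefore mainly restate the rise of the miR-200 family. The ratio of miR-205-5p was 3.10-fold lower at P18 than at W10 and 6.37-fold lower at Lac7 than at P18. The ratio of miR-203-3p was 2.88-fold and 2.84-fold lower. From P18 to Lac7 the level of miR-203-3p itself had a log2 fold change of -0.41 (-0.11 with size factors). The miR-200 sums again did not overlap, with 113670 to 133068 RPM at Lac7. The ratio of miR-203-3p in Lac7 against P18 therefore also mainly restates the miR-200 rise. None of these ratio comparisons had overlapping mice, and each gave the smallest p that 6 mice against 6 allow (two-sided exact permutation test, p = 0.0022, adjusted p = 0.0032 over 12 tests).

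From Lac7 to Inv3 the ratio of miR-205-5p rose 11.9-fold with no overlap (exact permutation p = 0.0022, adjusted p = 0.0032). For miR-203-3p the log2 ratio difference was 0.79 and did not pass (exact permutation p = 0.067, adjusted p = 0.089). It passed without Inv3 mouse 3 (0.94, adjusted p = 0.040) or mouse 6 (0.99, adjusted p = 0.0087). Against the adult gland, the Lac7 ratios were 19.7-fold lower for miR-205-5p and 8.18-fold lower for miR-203-3p. The Inv3 ratio of miR-203-3p was 4.72-fold lower, and each of these had an exact permutation p = 0.0022 and an adjusted p = 0.0032. The level of miR-203-3p itself did not pass in Lac7 against W10 (log2 fold change -0.16, adjusted p = 0.33, limma), so its ratio there mainly restates the miR-200 rise. The Inv3 ratio of miR-205-5p differed from that of W10 by -0.73 on the log2 scale (exact permutation p = 0.23) and from that of P18 by 0.90 (exact permutation p = 0.18). With each mouse left out, these differences were -1.05 to -0.45 and 0.58 to 1.18. Per miR-200c-3p alone they were 0.0904 (adjusted p = 0.87) and 1.17 (exact permutation test, adjusted p = 0.035), so the sign of the former turned and the latter passed. The Inv3 ratio of miR-203-3p differed from that of P18 by -0.71 (exact permutation p = 0.095, adjusted p = 0.11) and passed without Inv3 mouse 2 (-0.94, adjusted p = 0.032).

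**Figure D3:**
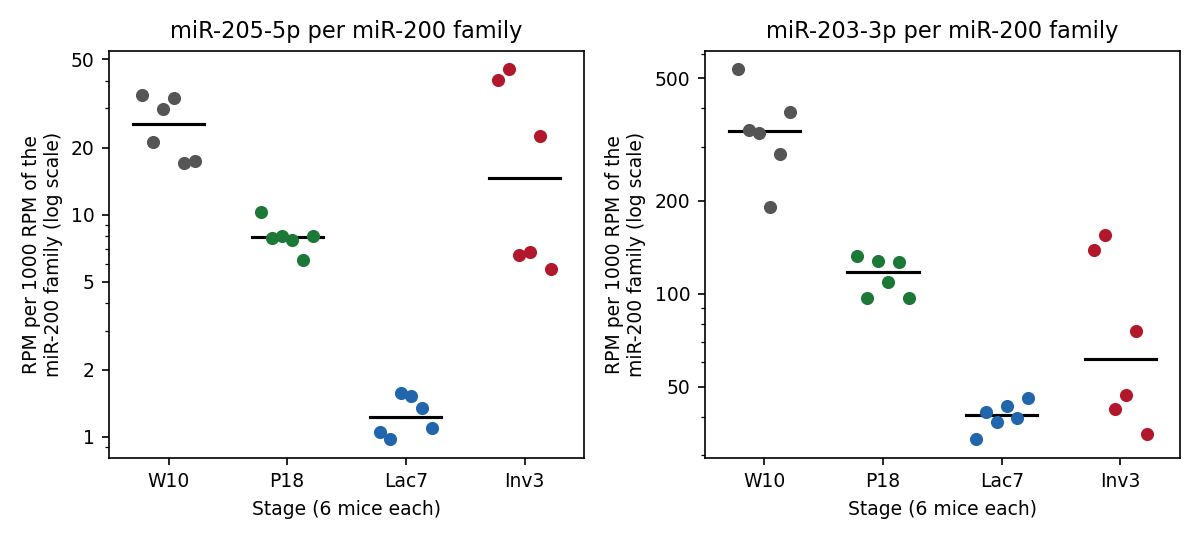
RPM of miR-205-5p (left) and miR-203-3p (right) per 1000 RPM of the summed miR-200 family in each mouse, on log axes, with the median of each stage as a line. The lactating mice are lowest for miR-205-5p (0.976 to 1.57), and the involuting mice spread from 5.66 to 45.0.

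The involuting mice differed widely, and along the miR-200 family. Mice 1, 2 and 5, with the low miR-200 sums, had 1073.52, 1042.31 and 682.91 RPM of miR-205-5p. Mice 3, 4 and 6, with the high sums, had 482.19, 406.52 and 443.17 RPM. Within Inv3 the Pearson correlation of the logged levels of miR-205-5p and the family was -0.93 (exact permutation p = 0.031, adjusted p = 0.18 over 12 relations within stages). It rests on the gap between 2 sets of 3 mice and was not tested within them. At the other stages the correlation was 0.78 at W10 (exact permutation p = 0.029, adjusted p = 0.18), 0.56 at P18 (exact permutation p = 0.26) and 0.26 at Lac7 (exact permutation p = 0.57), so no pooled value is given. miR-203-3p did not separate these involuting mice, with 3677.96, 3585.97 and 2302.09 RPM in mice 1, 2 and 5 and 3116.48, 2818.02 and 2764.28 RPM in mice 3, 4 and 6.

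Across mice, the relation between the members did not pass a test over all libraries. With each stage centred on its mean, r (Pearson) over 24 mice was 0.24 (permutation p = 0.40) and Spearman's rho was 0.24 (permutation p = 0.33). Without the 2 mice farthest from the median of miR-205-5p, r was 0.54 (permutation p = 0.041, adjusted p = 0.12 over 3 relations). Within stages r was 0.04 in the adult, 0.12 in the pregnant and 0.12 in the lactating mice. It was 0.59 in the involuting mice (exact permutation p = 0.22).

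**Figure D4:**
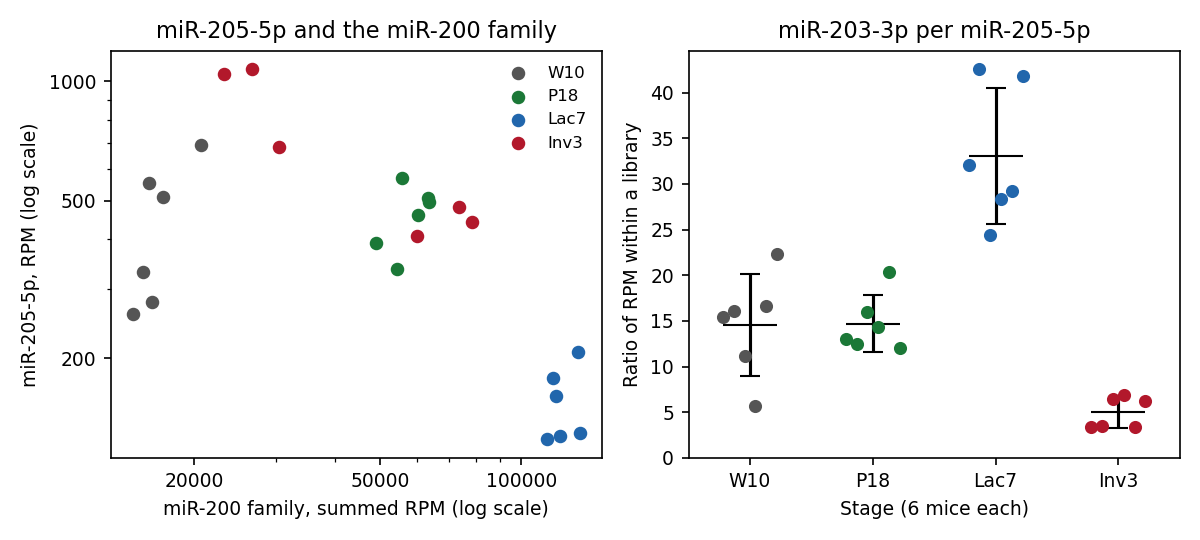
Left, miR-205-5p against the summed miR-200 family in RPM on log axes, 1 point per mouse, coloured by stage; right, RPM of miR-203-3p per RPM of miR-205-5p in each mouse with the mean and SD of 6 mice. The involuting mice form 2 sets on the left, and the lactating mice (24.5 to 42.6) lie above all others on the right.

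Both arms of the miR-203 hairpin had reads in every library, but the minor arm had few at 2 stages. It had 13 to 27 reads per lactating mouse and 13 to 62 per involuting mouse, against 79 to 196 per adult mouse. At Lac7 read counting alone gives 23.4% of its mean, and the SD between mice was 24.2%. The minor arm, miR-203-5p, was 125 ± 46.5 RPM in adult mice, 88.5 ± 16.3 in pregnant, 26.1 ± 6.31 in lactating and 30.1 ± 14.2 in involuting mice. It fell from P18 to Lac7 by 1.74 on the log2 scale (SE 0.26, adjusted p = 3.5e-06, limma) with no overlap, where the major arm fell by 0.41. Its log2 fold change of Inv3 against Lac7 was 0.11 (adjusted p = 0.72), where the major arm fell by 0.71. It was also called lower at Lac7 than at W10 (-2.18, adjusted p = 3.2e-08), at Inv3 than at W10 (-2.06, adjusted p = 6.5e-07) and at Inv3 than at P18 (-1.62, adjusted p = 2.6e-05).

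The share of miR-203-5p among the reads of both arms was 2.14% ± 0.308 in adult mice (1.57 to 2.42) and 1.34% ± 0.300 in pregnant mice (0.941 to 1.79). It was 0.525% ± 0.108 in lactating mice (0.341 to 0.649) and 0.965% ± 0.353 in involuting mice (0.470 to 1.53). This ratio within a library is free of the scaling, and its test was chosen after the data were seen. The log2 ratio of the arms fell by 0.70 from W10 to P18 (two-sided exact permutation test, p = 0.0043, adjusted p = 0.0065 over 6 tests) and by 1.36 from P18 to Lac7 (exact permutation p = 0.0022, adjusted p = 0.0043), the latter with no overlap. It rose by 0.83 from Lac7 to Inv3 (exact permutation p = 0.013, adjusted p = 0.016), with overlapping mice. It was lower than at W10 by 2.06 at Lac7 (log2 ratio difference -2.06) and by 1.24 at Inv3 (-1.24), each with an exact adjusted p = 0.0043. The difference of Inv3 from P18 was -0.54 (exact permutation p = 0.063, adjusted p = 0.063), and it passed without P18 mouse 1 (-0.63, adjusted p = 0.037) or Inv3 mouse 2 (-0.69, adjusted p = 0.013).

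**Figure D5:**
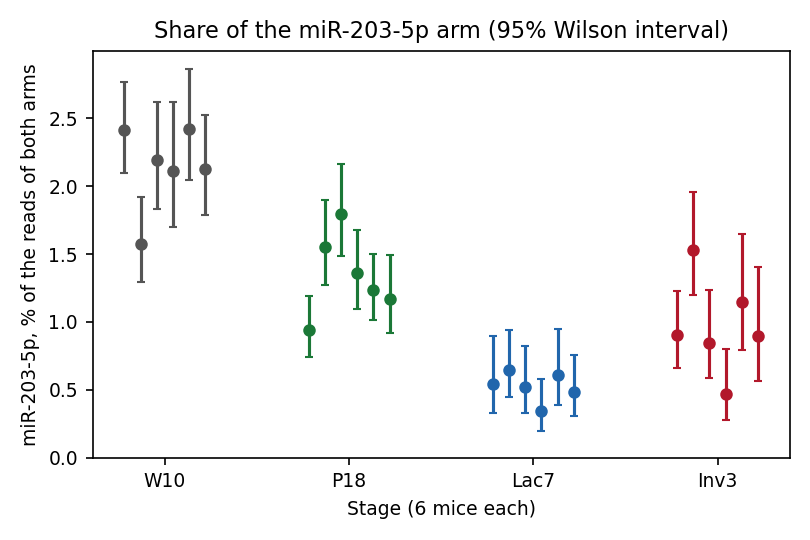
Share of miR-203-5p among all miR-203 reads in each mouse, in percent, with 95% Wilson intervals that cover counting error only. The adult mice lie between 1.57% and 2.42%, and the lactating mice between 0.341% and 0.649%.

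miR-205-3p was near the limit of detection, with 13, 44, 13 and 31 reads in all at W10, P18, Lac7 and Inv3 and 0 to 4 reads per adult mouse. Its means were 2.16, 7.45, 3.17 and 5.04 RPM. It was called higher at P18 than at W10 (log2 fold change 1.52, SE 0.36, adjusted p = 9.0e-04, limma), where miR-205-5p had a log2 fold change of 0.15. Such fold changes depend on the pseudocount. It was called lower at Lac7 than at P18 (-1.08, adjusted p = 0.014), a call lost with size factors (-0.85, adjusted p = 0.051), and higher at Inv3 than at W10 (1.06, adjusted p = 0.019). Its share of the miR-205 reads was 0.556% in adult, 1.64% in pregnant, 2.0% in lactating and 0.854% in involuting mice, on these few reads.

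Skin, contractile, fibroblast, lymphocyte and myeloid marker miRNAs rose with miR-205-5p between lactation and involution, while miR-203-3p fell, and their part in the changes was not tested. The 2 other miRNAs known from keratinocytes and skin, mmu-miR-31-5p and mmu-miR-184-3p, were both lower at Lac7 than at P18 (log2 fold changes -0.77 and -1.40) and both higher at Inv3 than at Lac7 (0.64 and 1.76), the directions of miR-205-5p. Both passed the test in these comparisons, as did 45.2% and 46.9% of all miRNAs. With size factors 1 of these 2 passed the test in each of these comparisons. At P18 against W10 they went apart, with 1.41 for mmu-miR-31-5p and -3.33 for mmu-miR-184-3p. Each kept its direction against W10 at Lac7 (0.64 and -4.73) and at Inv3 (1.28 and -2.97), and neither passed the test in Inv3 against P18.

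miR-143 and miR-145, which mark contractile cells such as smooth muscle and the myoepithelium, summed to 85923 to 104516 RPM in adult mice and 215128 to 297681 RPM in involuting mice. Their sums were 139519 to 156821 RPM in pregnant mice and overlapped those of lactating mice, 130051 to 149291 RPM. miR-143-3p made up nearly all of each sum, with means of 92349 RPM at W10 and 246220 RPM at Inv3. miR-145a-5p averaged 1151, 1113, 953 and 1838 RPM at W10, P18, Lac7 and Inv3. Of the 4 mature arms, 2 passed the test as higher at P18 than at W10, and 1 as lower at Lac7 than at P18. In these comparisons 41.5% and 45.2% of all miRNAs passed. Their median log2 fold changes were 0.45 and -0.29, against -0.32 and -0.34 over all miRNAs, and the latter was 0.01 with size factors. From Lac7 to Inv3, where 46.9% of all passed, 4 of 4 passed as higher (3 with size factors), with a median of 0.81 against 0.28. At Lac7 against W10, 2 passed as higher and 1 as lower (0 as lower with size factors), where 66.7% of all passed. At Inv3, 3 passed as higher than at W10 and 2 as higher than at P18, where 39.2% and 28.5% of all passed.

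Fibroblast, lymphocyte and myeloid lists fell at Lac7 and rose at Inv3 as miR-205-5p did. The 4 fibroblast miRNAs all fell from W10 to P18 and from P18 to Lac7 and all rose from Lac7 to Inv3, with sums of 17399 to 24369 RPM at Lac7 and 42402 to 67541 RPM at Inv3. The 3 lymphocyte miRNAs moved in the same directions, with sums of 424 to 838 RPM at Lac7 and 1575 to 3743 RPM at Inv3. The 3 myeloid and leukocyte miRNAs did so too, with sums of 3939 to 11992 RPM at Lac7 and 12884 to 23540 RPM at Inv3. Each of these changes passed the test, as did 41.5%, 45.2% and 46.9% of all miRNAs in the same order of comparisons. With size factors, 3 of the 4 fibroblast and 2 of the 3 myeloid miRNAs passed from P18 to Lac7, and all passed from Lac7 to Inv3. The median log2 fold changes from P18 to Lac7 were -1.21, -1.79 and -1.34 in the fibroblast, lymphocyte and myeloid lists, against -0.34 over all miRNAs. From Lac7 to Inv3 they were 1.30, 1.99 and 1.55, against 0.28. At Inv3 all 4 fibroblast, all 3 lymphocyte and 2 of the 3 myeloid miRNAs passed as lower than at W10, where 39.2% of all passed. With size factors 3 fibroblast, 1 lymphocyte and 0 myeloid miRNAs passed as lower there and 1 myeloid miRNA passed as higher. The 4 skeletal muscle miRNAs varied widely between mice, from 2378 to 24031 RPM in sum at W10. Their sums were 194 to 2420 RPM at P18, 104 to 5001 RPM at Lac7 and 215 to 947 RPM at Inv3. The 2 arms of endothelial miR-126a summed to between 12532 and 19549 RPM over all libraries. Both passed as higher at Lac7 than at P18, also with size factors, where 45.2% of all miRNAs passed by RPM. Their sums were 14884 to 16421 RPM at P18 and 17157 to 19549 RPM at Lac7, a rise where miR-205-5p fell.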

How the data were processed

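Small RNA of 24 mouse mammary glands was prepared with a mirVana kit and a QIAseq miRNA library kit. Reads were assigned by QuickMIRSeq to miRBase, and the authors deposited RPM values, scaled to the reads on listed miRNAs. The submitters' processing notes also name Trimmomatic 0.36, FastQC, MultiQC, cutadapt and GRCm38. How molecular identifiers were used is not given in the sources used here. Lactation is day 3 and involution day 7 in the series' design text, against day 7 and day 3 in the labels and the paper, whose days were used. Mice were numbered 1 to 6, and at W10 1 to 5 and 7. No 2 libraries of a stage agreed within sampling noise, and none was left out.

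RPM values were whole multiples of 1 read (0.858 to 1.51 RPM), and whole reads were recovered from 100% of them within 0.01 RPM. The 544 miRNAs that averaged 1 RPM or more at some stage entered limma 3.58.1 (R 4.3.3; lmFit, eBayes with trend) as log2(RPM + 1), in 1 fit over all libraries, two-sided, with Benjamini-Hochberg adjustment. Log2 fold changes are on this scale and understate those of low miRNAs, while folds of levels are ratios of mean RPM. Calls needed an adjusted p under 0.05 with a log2 fold change of 1 or more in size. Ratios were tested by exact permutation (two-sided) over all divisions of 12 mice, and relations across mice with 100000 permutations within stages. edgeR 4.0.16 and DESeq2 1.42.0 on the recovered reads, size factors, pseudocounts of 0.1 and 10, no filter or 100 RPM, only the 12 libraries compared, a replicate block, miR-200c-3p alone and each mouse left out were the alternatives. The members, the marker lists, the tests and the named miRNAs (the members, their other arms, the 5 miRNAs most like each, and listed markers) were chosen with earlier results of these data known. Permutations used scipy 1.17.1, tables pandas 2.3.3 and numpy 2.4.6 in python 3.11.15, and plots matplotlib 3.10.9.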

Additional observations from a re-analysis of the deposited data

Results flagged for a closer look

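The share of miR-203-5p among the miR-203 reads was 1.57% in W10 mouse 2, the lowest adult mouse, and 2.11% in the next lowest. Its gap to that mouse was 0.634 of the range of the 6 adult mice, above Dixon's critical value of 0.625. This was the 1 value set apart among 20 groups examined, and chance sets apart about 1 in 20. The fall of the arm ratio from W10 to P18 was between 0.60 and 0.79 on the log2 scale (log2 ratio differences -0.79 to -0.60) with each mouse left out in turn.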

How the results depend on the processing

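The rise of miR-205-5p from Lac7 to Inv3, its lower level at Lac7 than at P18 and W10, and the lower level of miR-203-3p at Inv3 than at each other stage passed the test under every alternative tried. miR-205-5p in Inv3 against W10 (0.64) did not pass with no filter (log2 fold change 0.64, adjusted p = 0.067), with only the 12 libraries of the comparison (0.64, adjusted p = 0.092), or with a replicate block (0.55, adjusted p = 0.11), and was 0.49 to 0.79 with each mouse left out. miR-205-5p in Inv3 against P18 passed with edgeR (0.69) and DESeq2 (0.72). miR-203-3p in P18 against W10 passed with size factors (0.51), edgeR (0.51) and DESeq2 (0.46), and was 0.16 to 0.38 with each mouse left out. In Lac7 against P18 it did not pass with size factors (-0.11), edgeR (-0.25) or DESeq2 (-0.11). In Lac7 against W10 its sign turned with size factors (0.40), edgeR (0.25) and DESeq2 (0.35). Its mean at Lac7 was 5920 on the size-factor scale. These 3 alternatives scale the libraries otherwise than RPM. The causes of the other changes were not tested.

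Calls of all miRNAs fell with a pseudocount of 10 to 88, 82, 79, 152, 69 and 34, and with a filter at 100 RPM, which tests fewer miRNAs, to 69, 67, 66, 99, 59 and 32, in the order P18 against W10, Lac7 against P18, Inv3 against Lac7, and Lac7 against W10, Inv3 against W10 and Inv3 against P18. Per miR-200c-3p alone, the ratio of miR-205-5p in Inv3 against W10 was 0.0904 (adjusted p = 0.87) and in Inv3 against P18 it was 1.17 (adjusted p = 0.035). With each mouse left out, the ratio of miR-203-3p to the family was 0.56 to 0.99 in Inv3 against Lac7 and -0.94 to -0.52 in Inv3 against P18, and the arm ratio in Inv3 against P18 was -0.69 to -0.35. The relation of miR-205-5p to the family was 0.78 within W10, 0.56 within P18, 0.26 within Lac7 and -0.93 within Inv3, and that of miR-203-3p was 0.29 within Lac7 against negative values elsewhere. With size factors, 3 of the 5 miRNAs most like miR-203-3p were shared.

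The mouse numbers gave no sign of pairing on average. Over 188 miRNAs libraries sharing a number (33 pairs) correlated by -0.05 on average after centring each stage, against 0.0039 for all other pairs. Pairs sharing a number ran from -0.79 to 0.61, and 13 of the 33 were over 0.1. The mean cannot show whether some pairs share an origin, and the labels do not say what the numbers are. Apart from the lost pass of miR-205-5p in Inv3 against W10, the block changed no pass or call of the members. The depth, with 85 to 140 reads of miR-205-5p per lactating mouse, limits its value there to a counting error of 9.60%.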

Other observations

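Among the 544 tested miRNAs, those with the level pattern most like miR-205-5p over the 24 libraries were mmu-miR-34c-5p (Pearson's r 0.87), mmu-miR-17-3p (0.86), mmu-miR-146a-5p (0.81), mmu-miR-342-3p (0.80) and mmu-miR-224-5p (0.80). mmu-miR-17-3p averaged 300.2, 277, 56.3 and 223 RPM at W10, P18, Lac7 and Inv3, so it too had its lowest mean at lactation. mmu-miR-342-3p belongs to the lymphocyte list and mmu-miR-146a-5p is well known from immune cells. Those most like miR-203-3p were mmu-miR-26b-5p (0.72), mmu-miR-17-5p (0.71), mmu-let-7c-5p (0.68), mmu-miR-361-5p (0.67) and mmu-miR-542-3p (0.67). mmu-miR-17-5p averaged 82.2, 122, 58.9 and 51.3 RPM in the same order, with its highest mean at P18 and its lowest at Inv3, as for miR-203-3p. The 2 members had an r of -0.19 with each other, at rank 396 of the miRNAs like miR-205-5p. The libraries share stages, and the values are a description with no test.

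Other epithelial lists had their highest sums at lactation, where miR-205-5p had its lowest level. The 3 miRNAs of the miR-183 cluster summed to 1004, 3201, 8122 and 3155 RPM at W10, P18, Lac7 and Inv3. All 3 rose from W10 to P18 and fell from Lac7 to Inv3. Each of these changes passed the test, as did 41.5% and 46.9% of all miRNAs. miR-148a-3p and miR-375-3p, known from milk-secreting cells, summed to 2382, 21361, 47192 and 9247 RPM. Both passed as higher at Lac7 than at P18 and as lower at Inv3 than at Lac7, where 45.2% and 46.9% of all passed. The 3 red blood cell miRNAs summed to 1149, 607, 956 and 801 RPM.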
